A study of Mus musculus with 49 samples.

Results

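10 genes for amino acid transporters were examined among the 23992 gene symbols measured by RNA-seq in mouse splenic T cells of the CD8+ (cytotoxic) class. The 10 genes were taken by their symbols: *Slc7a5*, *Slc3a2*, *Slc1a5*, *Slc1a4*, *Slc7a1*, *Slc7a6*, *Slc7a11*, *Slc38a1*, *Slc38a2*, and *Slc43a1*. For each gene the longest of the deposited transcripts was used, and all 10 passed the filter on low counts. The cells were isolated from spleen with a negative selection kit and came from 2 mouse lines of the C57BL/6J strain, the *Stat5a* line and the *Stat5b* line. KI mice of the *Stat5a* line carry a tyrosine-to-phenylalanine exchange in STAT5A, and KI mice of the *Stat5b* line carry the matching exchange in STAT5B, in each case at the tyrosine that IL-2 signaling phosphorylates. The alleles were made by CRISPR/Cas9 in B6D2F1 zygotes and are present in every cell of the animal, with further silent nucleotide changes, and were backcrossed for 6 generations. WT cells came from the same 2 lines, in which heterozygous crosses gave both genotypes and cages were shared. Age ranged from 8 to 24 weeks, and both sexes were included. Cells were collected at 0 hr or after 4, 24, or 48 hr in medium holding human IL-2 (recombinant, 500 IU/ml), which makes T cells grow and divide. Each of the 16 groups of line, genotype, and time has 3 libraries, except for 2 libraries in the *Stat5a* KI group at 4 hr, where replicate 3 was left out. The sources used here do not say whether the 3 libraries of a group came from separate mice, so the p-values measure the spread between these libraries, which may be technical.

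Proliferating T cells have to import amino acids to make protein, nucleotides, and polyamines, and cytokine and antigen signals are known to raise the transporters that do so. SLC7A5, also called LAT1, carries leucine and other large neutral amino acids, and it works only as a pair with the heavy chain SLC3A2, also called CD98hc. SLC7A6 and SLC7A11 use the same heavy chain, the first to exchange arginine for neutral amino acids such as glutamine and the other to bring in cystine for glutamate. SLC1A5 (ASCT2), SLC38A1 (SNAT1), and SLC38A2 (SNAT2) carry glutamine and other neutral amino acids, SLC1A4 (ASCT1) carries alanine, serine, and cysteine, SLC7A1 (CAT1) carries arginine and lysine, and SLC43A1 (LAT3) carries branched-chain amino acids without a heavy chain. IL-2 acts through STAT5A and STAT5B, which bind DNA at GAS motifs after tyrosine phosphorylation, and the question for these genes is how far their IL-2 response differs when 1 of the 2 proteins lacks that tyrosine.

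Levels are given as RPKM, the reads of a transcript per kilobase of its length relative to all mapped reads of that library, which allows a comparison between genes. Each of the 47 libraries holds between 17369112 and 60200653 reads on these longest transcripts (median 41410666). Of the genes, 7 were read deeply, with at least 636 reads in every library, and 3 were scarce: *Slc7a11* had 17 to 566 reads, *Slc1a4* 16 to 314, and *Slc43a1* 50 to 356. In WT cells at 0 hr, *Slc38a2* stood first, with an RPKM of 111.5, 116.7, and 98.7 for the *Stat5a* line and 106.2, 81.1, and 76.9 for the *Stat5b* line. *Slc3a2* and *Slc1a5* followed, and for the *Stat5b* line the ranges of *Slc38a2* and *Slc3a2* overlapped. *Slc7a5* was only the fourth, at means of 18.6 ± 1.93 (SD) and 19.2 ± 1.92 (SD) (n = 3 each), and its range overlapped that of *Slc38a1* in both lines. At 48 hr the order had changed: *Slc7a5* stood first, at 81.0 ± 10.4 (SD) and 94.8 ± 4.82 (SD), above the range of *Slc1a5* in both lines. The summed RPKM of the 10 genes was 280.3 to 301.3 at 0 hr and 305.8 to 346.1 at 48 hr in *Stat5a* line WT cells, and 284.1 to 309.8 and 348.4 to 367.7 in *Stat5b* line WT cells. The share of mapped reads on the longest transcripts also differed between these times. It was 69.22% to 71.92% and 80.54% to 84.06% for the *Stat5a* line, and 70.67% to 74.06% and 83.23% to 84.43% for the *Stat5b* line. RPKM does not correct for this, so the sums do not measure a rise in WT cells. In KI cells at 48 hr the sum was 243.8 to 244.5 for the *Stat5a* line and 185.2 to 206 for the *Stat5b* line, below every WT library at that time. The share of mapped reads on the longest transcripts was 77.66% to 80.59% and 72.63% to 78.5% in these KI libraries. The size of this difference is therefore not corrected for that share either.

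**Figure D1:**
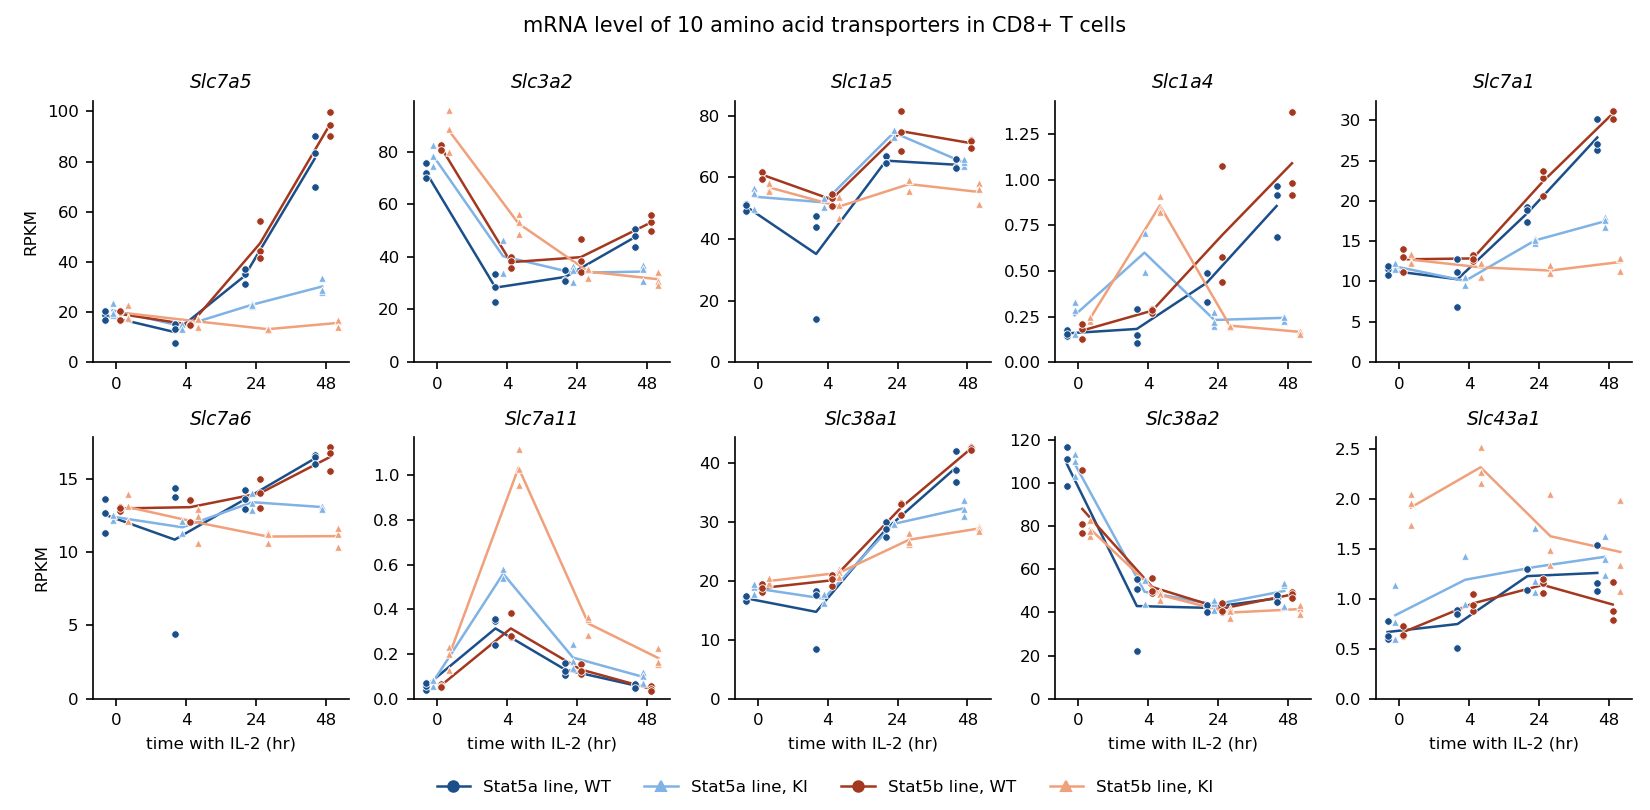
RPKM of each of the 10 genes (vertical axis, from 0) against the time with IL-2 (0, 4, 24, and 48 hr, evenly spaced) in WT (circles) and KI (triangles) cells of both lines; each point is 1 library and lines join group means of 3 libraries (2 for *Stat5a* KI at 4 hr). *Slc7a5*, *Slc7a1*, and *Slc38a1* are highest in WT cells at 48 hr, where the KI points lie lower, while *Slc3a2* and *Slc38a2* drop by 4 hr in all groups.

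**Figure D2:**
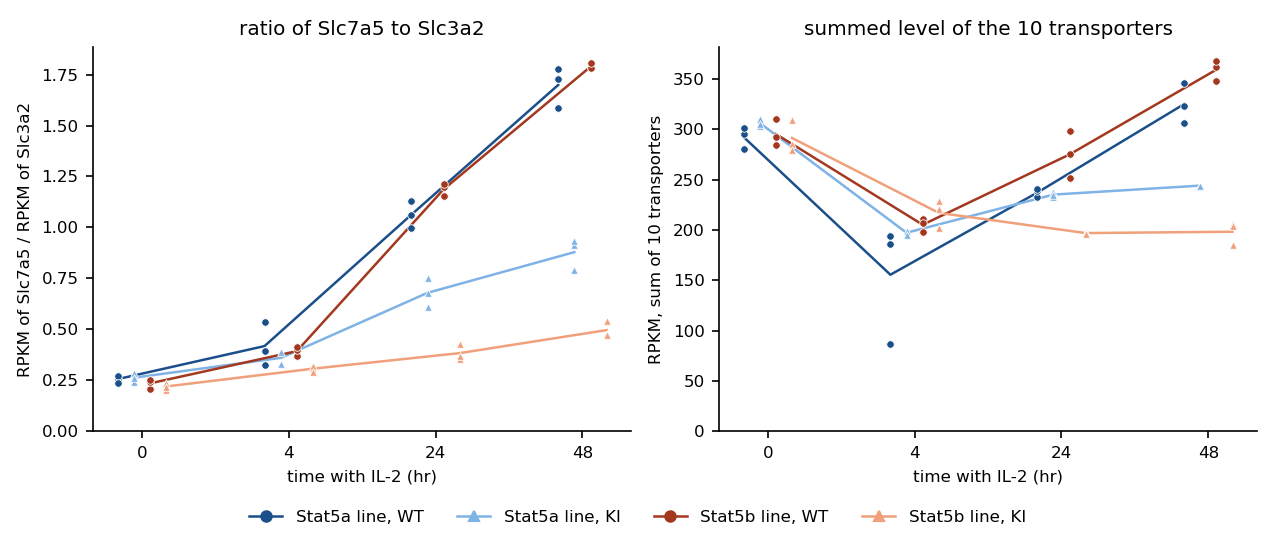
Left, the RPKM of *Slc7a5* divided by that of *Slc3a2* in each library, and right, the summed RPKM of the 10 genes in each library, against the time with IL-2 (hr), with lines through the group means. The WT ratios reach 1.59 to 1.80 at 48 hr, above all KI ratios (0.472 to 0.935).

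Some libraries stand apart from their groups. The first is WT replicate 2 at 4 hr from the *Stat5a* line, in which 44.86% of the mapped reads lay on the longest transcripts, against a median of 75.29% over the 47 libraries, and its RPKM values are low for most of the genes. *Slc1a5*, for instance, had an RPKM of 13.9 there and 47.6 and 44.0 in the other 2 libraries of the group, whereas *Slc7a11* had 0.3555 there and 0.3469 and 0.2396 in the others. The chi-square of the counts per gene between this library and the other 2 was 216.9 and 220.7, against 23 between those 2. Its profile of genes thus differed and not only its scale, and it was kept in the fits. The library left out of the *Stat5a* KI group at 4 hr holds 1028515 reads on the longest transcripts, 5.68% of its 18122792 mapped reads. In it, an RPKM of 31.8 for *Slc3a2* stands beside 0.0942 for *Slc7a5* and 0.260 for *Slc1a5*. At 4 hr the KI effect on *Slc3a2* for the *Stat5a* line was a log2 fold change of 0.21 without that library and 3.21 with it (edgeR adjusted p = 0.00034). Replicate 3 of the *Stat5a* line WT group at 0 hr also differs from the other 2, with a chi-square of their counts per gene of 41.97 and 53.3 against 15.56 between those 2, and a summed RPKM of B cell markers of 60.17 against 162 and 177.9. In these WT cells replicate 3 had the lowest B cell sum at the later times too. It was 46.37 against 142.5 and 87.53 at 4 hr, 27.06 against 90.19 and 80.29 at 24 hr, and 13.73 against 40.84 and 33.29 at 48 hr. Of the calls on the 10 genes, leaving out the 0 hr library changed that of *Slc38a1* at 48 hr alone, which was then called (1.07). Replicate 1 of the *Stat5a* KI groups has a summed RPKM of macrophage and monocyte markers of 87.07 at 24 hr and 72.31 at 48 hr, against 33.71 to 34.81 and 25.03 to 25.55 in replicates 2 and 3. Leaving it out changed no call on the 10 genes at 48 hr, and at 24 hr *Slc1a4* was then called lower in KI cells and the KI effect on *Slc7a11* differed between the lines (1.15, adjusted p = 0.039 from edgeR).

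Marker genes of several cell types were examined. The 8 CD8 T cell markers were *Cd8a*, *Cd8b1*, *Cd3d*, *Cd3e*, *Cd3g*, *Cd247*, *Lck*, and *Zap70*. Only *Cd8a* and *Cd8b1* among them encode CD8, and the others are general T cell genes, so their sum does not tell CD8 from other T cells. *Cd8a* had an RPKM of 81.0 to 342.5 and *Cd8b1* of 137.4 to 594. The summed RPKM of the 8 markers was 681.6 to 2090 in the libraries used, and its lowest value was in the WT library with the low share of reads on transcripts. *Cd3e* was the most abundant of them in that library, and *Cd8b1* or *Lck* in each of the others. Markers of other spleen cells were present as well, and those of several types were higher in KI cells. Over 10 B cell markers, led by *Cd79a* or *Cd79b*, the sum at 48 hr was 13.73 to 40.84 in WT and 106.5 to 127.5 in KI cells of the *Stat5a* line, and 11.79 to 14.2 in WT and 130.6 to 137.8 in KI cells of the *Stat5b* line. All 10 of these genes were higher in KI than in WT cells at 24 and 48 hr in both lines, by the rule for calls given below. Over 15 macrophage and monocyte markers, led by *Lyz2* or *Cd68*, the sum at 48 hr was 3.228 to 8.322 in WT and 25.03 to 72.31 in KI cells of the *Stat5a* line, and 3.273 to 4.63 and 68.18 to 110.1 for the *Stat5b* line. Of these 15 genes, the number called higher in KI cells at 48 hr was 12 for the *Stat5a* line and 15 for the *Stat5b* line, while *Trem2*, *Fcgr1*, and *Vsig4* were at 0 reads in all *Stat5b* line WT libraries at that time. Over 7 erythroid markers, led by *Hbb-bs* or *Hba-a1*, the sum at 48 hr was 6.462 to 8.046 in WT and 17.97 to 22.51 in KI cells of the *Stat5a* line, and 4.723 to 8.32 and 110.9 to 206.1 for the *Stat5b* line, where 6 of the 7 were called higher in KI cells at 48 hr and 7 at 0 hr. Of 5 CD4 T cell markers, led by *Ctla4* or *Cd4*, 2 were called higher at 48 hr in the KI cells of the *Stat5a* and 3 in those of the *Stat5b* line. Over 6 NK cell markers, led by *Gzma*, the sums of KI and WT cells overlapped at 48 hr in both lines. Of these 6 genes, 0 were called for the *Stat5a* line at 48 hr, and 2 were called higher and 1 lower in *Stat5b* KI cells. Beside these counts, 6.35% of all genes were called higher in KI cells at 48 hr for the *Stat5a* line and 16.5% for the *Stat5b* line. Of the 8 CD8 markers, 6 were higher in KI cells at 48 hr by the adjusted p alone in each line, all by less than 2-fold. By that rule 44.3% of all genes differed in either direction for the *Stat5a* and 63.6% for the *Stat5b* line. At 0 hr the CD8 sum was 1253 to 1531 in WT and 1127 to 1194 in KI cells of the *Stat5a* line. For the *Stat5b* line it was 1536 to 1696 and 1260 to 1325. The part of other cells in the results below was not tested, and in bulk RNA fewer cells of a type and less RNA per cell cannot be told apart.

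**Figure D3:**
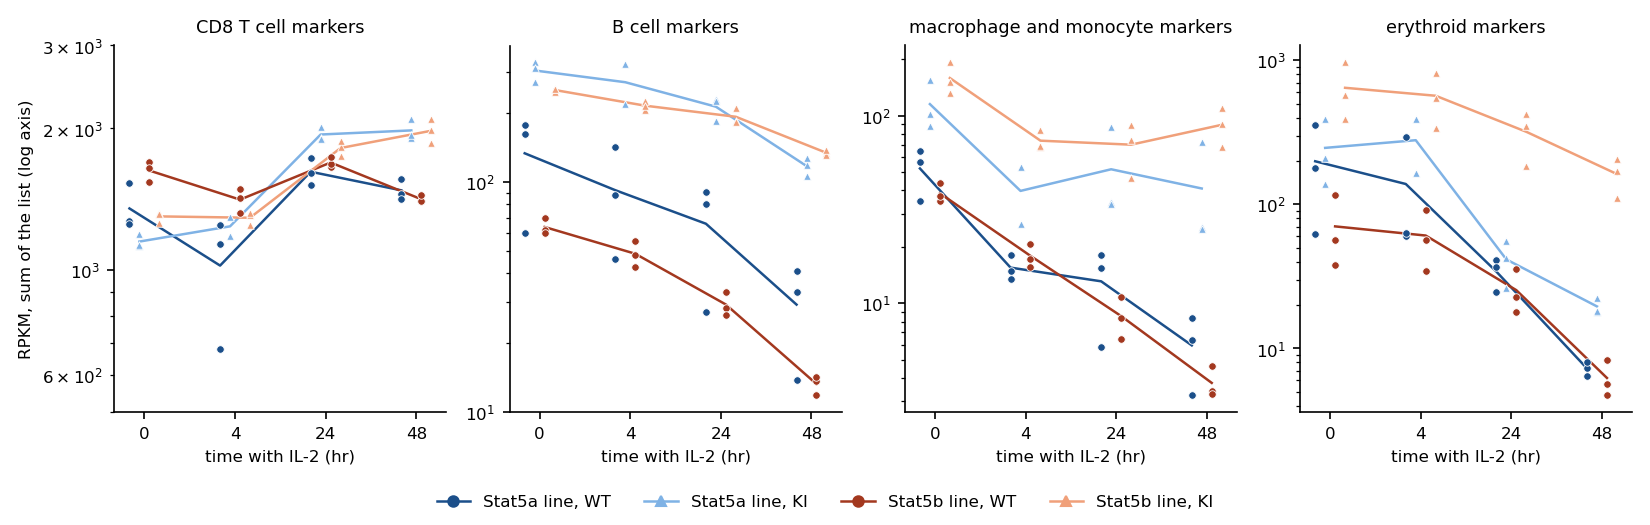
Summed RPKM of the markers of CD8 T cells, B cells, macrophages and monocytes, and erythroid cells (log axis, its range set for each panel) against the time with IL-2 (hr); each point is 1 library and lines join group means. B cell sums at 48 hr are 11.79 to 40.84 in WT and 106.5 to 137.8 in KI libraries, whereas the CD8 sums of KI cells at 48 hr (1861 to 2090) are not below those of WT cells (1402 to 1562).

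A gene was called higher or lower when edgeR's quasi-likelihood test gave a p of at most 0.05 after Benjamini-Hochberg adjustment over the 15566 genes tested and the fold change was at least 2. Log2 fold changes are given ± their SE. The first comparison set WT cells after 4, 24, or 48 hr with IL-2 against WT cells at 0 hr. None of the groups was cultured without IL-2, so effects of IL-2 and of time in culture cannot be told apart. Changes with IL-2 and IL-2 responses, as named here, cover both. At 48 hr, *Slc7a5*, *Slc1a4*, and *Slc7a1* were called higher than at 0 hr in both lines, *Slc38a1* for the *Stat5b* line, and *Slc38a2* was called lower in both. These are 3 higher for the *Stat5a* line and 4 for the *Stat5b* line among 10, where 14.3% and 14.6% of all genes tested were called higher, and 1 lower in each line, where 22.3% and 20.7% of all genes were. At 24 hr, 2 were higher and 2 lower in each line. The higher ones were *Slc1a4* and *Slc7a11* for the *Stat5a* line (8.72% of all genes were called higher) and *Slc7a5* and *Slc1a4* for the *Stat5b* line (9.07%), and the lower ones were *Slc3a2* and *Slc38a2* in both (14.2% and 13.5% of all genes were lower). The values of *Slc7a11* at 24 hr lay on the 2 sides of the 2-fold limit, at 1.05 ± 0.28 (adjusted p = 0.0015) and 0.96 ± 0.28 (adjusted p = 0.0036). The *Stat5a* call was lost with DESeq2 and its size factors, without replicate 1 at 0 hr (0.87), and without replicate 2 at 24 hr (0.88), and the *Stat5b* value was called under 6 alternatives, at 1.02 to 1.14. At 4 hr, *Slc7a11* alone was higher in each line (10% and 5.83% of all genes), and *Slc3a2* was lower in both lines, with *Slc38a2* lower for the *Stat5a* line as well (11.4% and 9.89%). The *Slc38a2* values were −1.37 ± 0.12 (adjusted p = 4.6e-12) and −0.94 ± 0.12 (adjusted p = 2.7e-08). The *Stat5b* value was just short of 2-fold and was called without replicate 3 at 0 hr (−1.02). Over the 10 genes the median log2 fold change at 48 hr was 0.44 for the *Stat5a* line and 0.25 for the *Stat5b* line, and over all genes tested −0.12 and −0.13. The WT comparisons at 4, 24, and 48 hr of a line share the 0 hr libraries.

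The second comparison set KI against WT cells at each time. At 0 hr, 0 of the 10 genes were called for the *Stat5a* line by edgeR or DESeq2, 1 had a p under 0.05 before adjustment, and 1.04% of all genes were called, and *Slc7a11* and *Slc43a1* were higher in *Stat5b* KI cells, where 7.38% of all genes were higher. At 4 hr *Slc1a4* was higher in KI cells of both lines, together with *Slc7a11* and *Slc43a1* for the *Stat5b* line (2.47% and 9.2% of all genes). At 24 hr, 0 of the 10 were called for the *Stat5a* line by edgeR or DESeq2 (4.45% of all genes in either direction by edgeR). *Slc7a5*, *Slc1a4*, and *Slc7a1*, the 3 with a p under 0.05 before adjustment, also passed after it but were lower by less than 2-fold (adjusted p = 9.7e-05, 0.0065, and 0.00049 from edgeR). The closest to that limit was *Slc1a4*, at −0.98 ± 0.26 (adjusted p = 0.0065), which passed 2-fold and was called lower by edgeR with the replicate number as a block (adjusted p = 0.0038), with no filter on low counts, with the transcript that has the most reads, with all 48 libraries, and without replicate 1 of the WT (−1.17) or of the KI cells (−1.11). In the *Stat5b* line *Slc7a5*, *Slc1a4*, and *Slc7a1* were lower in KI cells (5.77% of all genes) and *Slc7a11* was higher (10.9%). At 48 hr, *Slc7a5* and *Slc1a4* were lower in *Stat5a* KI cells, 2 of 10 against 2.43% of all genes, and 0 were higher against 6.35%. In *Stat5b* KI cells *Slc7a5*, *Slc1a4*, and *Slc7a1* were lower, 3 of 10 against 9.81% of all genes, and *Slc7a11* was higher against 16.5%. By the adjusted p alone, 6 of the 10 differed for the *Stat5a* line at 48 hr, all lower in KI cells, where 44.3% of all genes passed in either direction. All 10 differed for the *Stat5b* line, 8 lower and 2 higher, where 63.6% of all genes passed. The median log2 fold change of the 10 genes at 48 hr was −0.35 for the *Stat5a* line and −0.64 for the *Stat5b* line, and 0.04 and 0.10 over all genes tested.

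**Figure D4:**
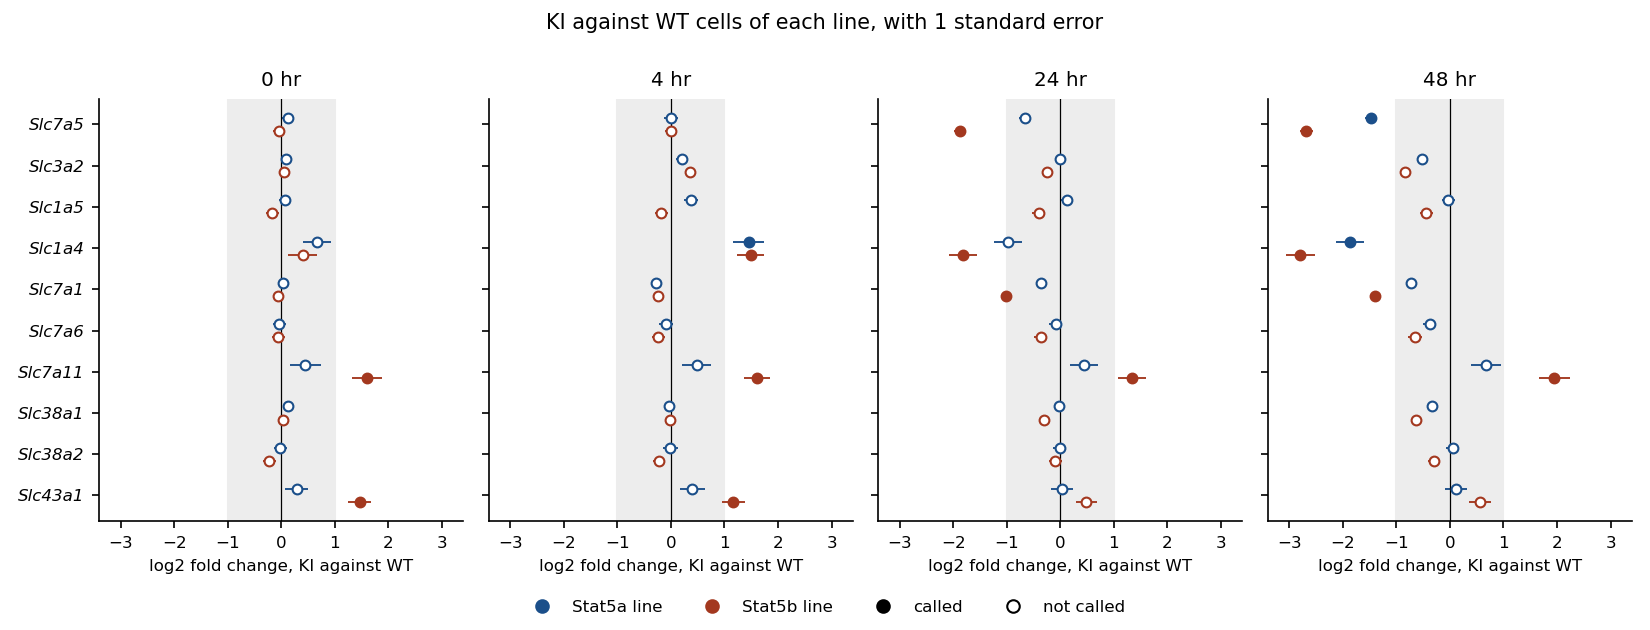
Log2 fold change of KI against WT cells (horizontal axis; bars are 1 SE of edgeR's fit) for each of the 10 genes at 0, 4, 24, and 48 hr in the *Stat5a* and *Stat5b* lines; filled points are called, and the grey band marks changes under 2-fold. At 48 hr *Slc7a5*, *Slc1a4*, and *Slc7a1* lie on the left in both lines and *Slc7a11* of the *Stat5b* line on the right.

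*Slc7a5* (chr8:121881146-121907686 of GRCm38, minus strand), the leucine carrier of the LAT1 pair, showed the widest change in level among the deeply read genes. In WT cells its RPKM was 18.6, 20.5, and 16.6 at 0 hr and 69.7, 90.1, and 83.2 at 48 hr for the *Stat5a* line, and 17.0, 20.1, and 20.4 and 94.7, 99.6, and 90.0 for the *Stat5b* line. At 4 hr it was first lower than at 0 hr by less than 2-fold, at log2 fold changes of −0.63 ± 0.11 (adjusted p = 1.1e-05) and −0.54 ± 0.11 (adjusted p = 0.00013). At 48 hr every IL-2 library lay above every 0 hr library, with log2 fold changes of 1.92 ± 0.12 (adjusted p = 3.5e-17) for the *Stat5a* line and 2.13 ± 0.12 (adjusted p = 2e-18) for the *Stat5b* line. In KI cells at 48 hr the RPKM was 33.6, 28.0, and 28.9 for the *Stat5a* line and 16.3, 16.8, and 13.8 for the *Stat5b* line. The *Stat5b* KI values at 48 hr thus lay below their own 0 hr values of 17.9, 22.8, and 17.6, whereas the *Stat5a* KI values lay above theirs of 23.7, 18.7, and 19.5. Against WT cells the log2 fold change at 48 hr was −1.48 ± 0.11 (adjusted p = 2.6e-12) and −2.68 ± 0.12 (adjusted p = 9e-20), or 2.78-fold and 6.41-fold lower. At 24 hr it was −0.65 ± 0.11 (adjusted p = 9.7e-05) and −1.88 ± 0.12 (adjusted p = 2.4e-15), and at 0 and 4 hr it was between −0.04 and 0.13 in both lines. All KI libraries were below all WT libraries at 24 and at 48 hr in both lines.

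*Slc3a2* (chr19:8706882-8723369, minus strand), the heavy chain that SLC7A5, SLC7A6, and SLC7A11 need, took another course. Its RPKM in WT cells was 71.9, 75.6, and 70.0 at 0 hr, 28.6, 23.0, and 33.4 at 4 hr, and 43.9, 50.7, and 48.1 at 48 hr for the *Stat5a* line. In the *Stat5b* line the values were 81.9, 82.6, and 80.5, 39.8, 38.5, and 35.6, and 53.2, 55.9, and 49.9. It thus dropped early and was still below the 0 hr libraries at 48 hr. The log2 fold change was −1.31 ± 0.10 (adjusted p = 1.1e-13) and −1.28 ± 0.10 (adjusted p = 2.6e-13) at 4 hr, called lower in both lines, and −0.82 ± 0.10 (adjusted p = 3.2e-09) and −0.80 ± 0.10 (adjusted p = 5e-09) at 48 hr, which is less than 2-fold. With all 48 libraries the 4 hr calls were lost at similar values, −1.26 and −1.27 (adjusted p = 0.054 and 0.06 from edgeR). The *Stat5b* call at 24 hr was then lost as well (−1.17, adjusted p = 0.068 from edgeR). KI cells of the *Stat5b* line had 88.8, 95.7, and 80.0 at 0 hr and 56.3, 53.1, and 48.6 at 4 hr, again with no overlap between the times. At 4 hr they lay above all WT libraries by less than 2-fold, at 0.36 ± 0.10 (adjusted p = 0.0056) on the log2 scale, and for the *Stat5a* line the value was 0.21 ± 0.11 (adjusted p = 0.15). At 48 hr all KI libraries, at 36.9, 35.4, and 30.9 for the *Stat5a* line and 34.2, 31.0, and 29.3 for the *Stat5b* line, were below the WT libraries by less than 2-fold, at log2 fold changes of −0.52 ± 0.10 (adjusted p = 4.8e-05) and −0.83 ± 0.10 (adjusted p = 3.8e-09). The RPKM of *Slc7a5* relative to that of *Slc3a2*, a ratio within each library that the scaling of libraries does not touch, was 0.238 to 0.271 at 0 hr and 1.59 to 1.78 at 48 hr in *Stat5a* line WT cells. In *Stat5b* line WT cells it went from 0.207 to 0.254 at 0 hr to 1.78 to 1.80 at 48 hr. In KI cells at 48 hr it was 0.789 to 0.935 for the *Stat5a* line and 0.472 to 0.541 for the *Stat5b* line. The light chain mRNA thus exceeded the heavy chain mRNA in all WT libraries at 48 hr and in 0 of the 6 KI libraries. At 24 hr the ratio was 0.996 to 1.13 in WT and 0.610 to 0.751 in KI cells of the *Stat5a* line, and 1.15 to 1.21 and 0.354 to 0.429 for the *Stat5b* line.

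Other light chains of SLC3A2 were measured as well. *Slc7a6* (chr8:106168219-106198714, plus strand), the arginine and glutamine exchanger, had an RPKM of 12.7, 11.3, and 13.7 at 0 hr and 16.6, 16.5, and 16.0 at 48 hr in *Stat5a* line WT cells, and 12.8, 13.1, and 13.03 and 17.2, 15.5, and 16.8 in *Stat5b* line WT cells. The log2 fold changes at 48 hr, 0.18 and 0.17, did not pass the test (adjusted p = 0.19 and 0.21 from edgeR), although the 48 hr libraries lay above the 0 hr libraries in both lines. KI cells at 48 hr had 13.2, 13.1, and 12.9 and 11.2, 11.7, and 10.3, below all WT libraries, with log2 fold changes of −0.38 ± 0.12 (adjusted p = 0.012) and −0.65 ± 0.12 (adjusted p = 2e-05), less than 2-fold.

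*Slc7a11* (chr3:50364936-50499087, minus strand), the cystine carrier xCT, was scarce and rose for a short time. Its RPKM in WT cells was 0.0390, 0.0565, and 0.0686 at 0 hr, 0.347, 0.355, and 0.240 at 4 hr, and 0.0653, 0.0636, and 0.0474 at 48 hr for the *Stat5a* line. In the *Stat5b* line it was 0.0666, 0.0568, and 0.0519, 0.277, 0.282, and 0.383, and 0.0554, 0.0427, and 0.0342. The rise at 4 hr was a log2 fold change of 2.60 ± 0.28 (adjusted p = 4.7e-10) and 2.24 ± 0.28 (adjusted p = 1.6e-08), and at 48 hr the groups overlapped the 0 hr groups. *Stat5b* KI cells were above WT cells at every time, with an RPKM of 0.128, 0.231, and 0.201 at 0 hr, 1.03, 0.956, and 1.12 at 4 hr, and 0.156, 0.163, and 0.225 at 48 hr. Against WT cells the log2 fold change was 1.61 ± 0.28 (adjusted p = 7.5e-05) at 0 hr, 1.61 at 4 hr, 1.34 at 24 hr, and 1.95 ± 0.29 (adjusted p = 2.9e-07) at 48 hr. In *Stat5a* KI cells it was 0.44 to 0.67 at the 4 times and not called. The macrophage, B cell, and erythroid markers were higher in the same *Stat5b* KI groups, and their part in this difference was not tested. The promoter of *Slc7a11* is shown because the amino acid response element, the site through which ATF4 acts on genes in amino acid shortage, occurs in it. Bases in capitals are, in this order, a match to the GAS motif TTCNNNGAA and matches to the amino acid response element TGATGNAAN, the first on the strand shown and the next on the other strand, first bases 183, 66, and 48 bases before the start of the transcript. The window is chr3:50443614-50443863 of GRCm38.p6 (RefSeq, minus strand), 250 bases up to the start.
Slc7a11: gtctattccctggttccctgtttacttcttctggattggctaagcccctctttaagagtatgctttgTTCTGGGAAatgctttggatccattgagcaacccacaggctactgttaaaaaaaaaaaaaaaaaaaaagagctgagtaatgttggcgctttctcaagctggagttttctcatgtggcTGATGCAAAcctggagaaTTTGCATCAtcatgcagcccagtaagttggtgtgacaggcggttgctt

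*Slc1a4* (chr11:20302180-20332713, minus strand), the ASCT1 carrier of alanine, serine, and cysteine, was also scarce, and its KI effect changed sign with time. In WT cells its RPKM was 0.175, 0.145, and 0.152 at 0 hr and 0.686, 0.915, and 0.966 at 48 hr for the *Stat5a* line, and 0.129, 0.184, and 0.206 and 0.984, 1.37, and 0.917 for the *Stat5b* line. The rise at 48 hr was a log2 fold change of 2.23 ± 0.26 (adjusted p = 1.5e-09) and 2.48 ± 0.26 (adjusted p = 1.5e-10). At 4 hr WT cells had 0.289, 0.105, and 0.151 and 0.270, 0.290, and 0.286, and KI cells were above them, with 0.708 and 0.492 in the 2 *Stat5a* KI libraries and 0.910, 0.842, and 0.825 in the *Stat5b* KI libraries. The log2 fold change of KI against WT cells at 4 hr was 1.45 ± 0.28 (adjusted p = 0.00077) and 1.49 ± 0.25 (adjusted p = 2.5e-05). Without replicate 1 of the *Stat5a* KI cells the *Stat5a* value was 1.21 and not called (adjusted p = 0.078 from edgeR, with the single library left assumed to vary like the other groups), nor was it when only the 2 groups compared were fitted (1.43, adjusted p = 0.73). By 48 hr the order was the opposite: KI cells had 0.251, 0.228, and 0.250 for the *Stat5a* line and 0.171, 0.171, and 0.156 for the *Stat5b* line, below all WT libraries, with log2 fold changes of −1.87 ± 0.25 (adjusted p = 2.1e-07) and −2.79 ± 0.27 (adjusted p = 2.3e-11). The promoter of *Slc1a4* is shown for the same element as that of *Slc7a11*. The capitals mark a match to TGATGNAAN on the other strand that begins 5 bases before the start of the transcript and runs 4 bases past it. The window is chr11:20332710-20332963 of GRCm38.p6 (RefSeq, minus strand).
Slc1a4: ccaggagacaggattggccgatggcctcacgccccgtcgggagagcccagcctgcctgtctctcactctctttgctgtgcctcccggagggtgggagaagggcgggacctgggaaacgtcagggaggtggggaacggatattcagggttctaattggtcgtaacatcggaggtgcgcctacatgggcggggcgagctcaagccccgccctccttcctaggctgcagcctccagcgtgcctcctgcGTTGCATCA
Of the 10 genes, 7 matched the RefSeq table of promoters (250 bases before to 50 after the start), with 9 windows, and for 5 of the 7 a window starts with the transcript used here. Over all 32851 windows of the table, 3.95% hold TGATGNAAN, 8.3% hold TTCNNNGAA, and 7.15% hold the E box CACGTG, which MYC binds, each searched on both strands. No letters of the 3 motifs overlap one another in the windows shown. Besides *Slc7a11* and *Slc1a4*, a window of *Slc43a1* that belongs to another transcript start holds 1 E box and such a window of *Slc7a1* holds 1 GAS motif. The windows of *Slc3a2*, *Slc7a6*, and *Slc38a2* and the one at the start of the *Slc7a1* transcript used here hold none of the 3. A match is given as a description of the sequence and not as a binding site.

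*Slc7a1* (chr5:148327410-148399904, minus strand), the arginine and lysine carrier CAT1, followed *Slc7a5* most closely among the 10 genes. Its RPKM in WT cells was 11.5, 10.8, and 11.9 at 0 hr and 26.4, 30.2, and 27.0 at 48 hr for the *Stat5a* line, and 11.2, 13.1, and 13.98 and 30.2, 31.1, and 31.2 for the *Stat5b* line. The rise was a log2 fold change of 1.08 ± 0.07 (adjusted p = 5.7e-16) and 1.10 ± 0.07 (adjusted p = 3.4e-16), with no overlap between the groups. KI cells at 48 hr had 18.0, 16.8, and 17.6 for the *Stat5a* line and 12.97, 12.96, and 11.3 for the *Stat5b* line. Against WT cells this was a log2 fold change of −0.72 ± 0.07 (adjusted p = 4.2e-10), less than 2-fold, and −1.39 ± 0.07 (adjusted p = 3.9e-18), which was called lower. *Stat5b* KI cells at 48 hr were thus near the 0 hr level of 12.4, 13.4, and 12.3. At 24 hr the *Stat5b* value of −1.01 stood just past the 2-fold limit. It was −0.97 with DESeq2 and with its size factors, −0.92 with limma, and −0.967 to −0.985 without replicate 1 or 2 of the WT or replicate 1 or 3 of the KI cells.

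Among the carriers of glutamine the directions differed. *Slc38a1* (chr15:96571418-96643438, minus strand), or SNAT1, had an RPKM of 17.2, 16.6, and 17.4 at 0 hr and 36.8, 42.2, and 38.9 at 48 hr in *Stat5a* line WT cells, and 18.1, 19.4, and 18.8 and 42.7, 42.6, and 42.3 in *Stat5b* line WT cells. The log2 fold changes of 1.00 ± 0.07 (adjusted p = 9.7e-16) and 1.01 ± 0.07 (adjusted p = 7.1e-16) lie on the 2 sides of the 2-fold limit, so that only the *Stat5b* value was called. The *Stat5a* value was also called under 9 alternatives, at 1.00 to 1.16, and the *Stat5b* value was 0.994 and not called when only the groups compared were fitted. KI cells at 48 hr had 33.9, 31.0, and 32.3 and 29.3, 29.0, and 28.5, below all WT libraries by less than 2-fold, at −0.33 ± 0.07 (adjusted p = 0.00011) and −0.64 ± 0.07 (adjusted p = 2.3e-10). These KI values remain above the 0 hr values of KI cells, 19.0, 17.8, and 19.6 and 19.8, 19.6, and 20.6.

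*Slc38a2* (chr15:96687392-96699728, minus strand), or SNAT2, lies near *Slc38a1* on chromosome 15 and fell. In the *Stat5a* line WT cells had an RPKM of 111.5, 116.7, and 98.7 at 0 hr, 42.5, 43.5, and 40.4 at 24 hr, and 46.8, 48.2, and 44.7 at 48 hr, and for the *Stat5b* line 106.2, 81.1, and 76.9, 44.6, 40.2, and 40.6, and 49.6, 48.8, and 46.7. At 48 hr the log2 fold change was −1.44 ± 0.12 (adjusted p = 4.4e-13) and −1.04 ± 0.12 (adjusted p = 1e-09). The *Stat5b* value was −0.78 without replicate 1 of the 0 hr group, which stands above the other 2 libraries of that group. It was also short of 2-fold, at −0.838 to −0.961, with limma, with no filter on low counts, with the transcript that has the most reads, and with all 48 libraries, and at −0.99, −0.97, and −0.92 without replicate 1, 2, or 3 of the 48 hr group. KI cells had 43.2, 53.0, and 53.8 for the *Stat5a* line and 42.1, 43.5, and 39.1 for the *Stat5b* line at 48 hr, and the KI effect at that time was 0.06 ± 0.12 (adjusted p = 0.74) and −0.30 ± 0.12 (adjusted p = 0.03). Its 95% interval was −0.18 to 0.29 for the *Stat5a* line and −0.53 to −0.06 for the *Stat5b* line.

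*Slc1a5* (chr7:16781334-16798274, plus strand), the glutamine carrier ASCT2, was expressed at a high level throughout, with an RPKM of 51.4, 49.1, and 51.1 at 0 hr and 63.3, 66.1, and 63.0 at 48 hr in *Stat5a* line WT cells, and 61.8, 61.6, and 59.4 and 72.1, 71.9, and 69.4 in *Stat5b* line WT cells. The 48 hr libraries lay above the 0 hr libraries, but the log2 fold changes of 0.14 ± 0.12 (adjusted p = 0.31) and 0.05 ± 0.12 (adjusted p = 0.73) did not pass the test. KI cells at 48 hr had 63.8, 64.9, and 65.9 for the *Stat5a* line, which overlap the WT values, and 58.3, 56.2, and 51.3 for the *Stat5b* line, which do not. The KI effect was −0.03 ± 0.12 (adjusted p = 0.85) and −0.44 ± 0.12 (adjusted p = 0.0018). *Slc43a1* (chr2:84838855-84863586, plus strand), the branched-chain carrier LAT3, had an RPKM of 0.626, 0.640, and 0.725 in WT and 1.95, 2.04, and 1.74 in KI cells of the *Stat5b* line at 0 hr, a log2 fold change of 1.46 ± 0.21 (adjusted p = 6.4e-06). At 4 hr the values were 0.879, 0.933, and 1.04 and 2.52, 2.27, and 2.16, at 1.17 ± 0.21 (adjusted p = 4.5e-05), and at 48 hr the groups overlapped. In the *Stat5a* line KI and WT cells overlapped at 0, 24, and 48 hr. As with *Slc7a11*, the erythroid, macrophage, and B cell markers were higher in the same *Stat5b* KI groups, and their part was not tested.

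The IL-2 response of KI cells was then set against that of WT cells as a difference of log2 fold changes. At 4 hr, 0 of the 10 genes were called in either line, where 0.34% and 0.61% of all genes were. Before adjustment 1 and 2 of the 10 had a p under 0.05, and DESeq2 called 0 in each line. At 24 hr *Slc1a4* had the smaller response in KI cells of both lines, at −1.65 ± 0.37 (adjusted p = 0.0065) and −2.22 ± 0.38 (adjusted p = 1.1e-05), and *Slc7a5* in *Stat5b* KI cells, at −1.83 ± 0.16 (adjusted p = 3e-11), which makes 1 and 2 of 10 against 1.31% and 6.66% of all genes. At 48 hr *Slc7a5* stood at −1.61 ± 0.16 (adjusted p = 5.8e-09) and −2.64 ± 0.16 (adjusted p = 3e-15), and *Slc1a4* at −2.53 ± 0.37 (adjusted p = 3.3e-06) and −3.19 ± 0.38 (adjusted p = 6.4e-09). *Slc7a1* was called for the *Stat5b* line only, at −1.32 ± 0.10 (adjusted p = 3.5e-13) against −0.76 ± 0.10 (adjusted p = 7.2e-07) for the *Stat5a* line. These are 2 of 10 for the *Stat5a* line and 3 of 10 for the *Stat5b* line, where 3.09% and 11.1% of all genes were called lower. *Slc3a2*, at −0.61 ± 0.14 (adjusted p = 0.00099) and −0.88 ± 0.14 (adjusted p = 1.9e-06), was not called. *Slc43a1* stood near the limit for the *Stat5b* line, at −0.97 ± 0.29 (adjusted p = 0.0085) at 24 hr and −0.90 ± 0.29 (adjusted p = 0.011) at 48 hr. It was called at 24 hr without replicate 3 of the WT or KI cells at 0 hr, replicate 3 of the WT, or replicate 2 of the KI cells at 24 hr (−1.01 to −1.17), and at 48 hr without replicate 2 of the WT (−1.04) or of the KI cells (−1.20).

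The KI effects of the 2 lines were compared directly as the *Stat5b* minus the *Stat5a* value. At 24 hr *Slc7a5* was called, with a difference of −1.23 ± 0.16 (adjusted p = 1.9e-06), 1 of 10 against 2.65% of all genes. At 48 hr *Slc7a5* (−1.20 ± 0.16 (adjusted p = 1.6e-05)) and *Slc7a11* (1.28 ± 0.40 (adjusted p = 0.034)) were called, 2 of 10 against 2.06%. The KI effect on *Slc7a5* was thus larger for the *Stat5b* line by 2.30-fold at 48 hr, beyond the spread between libraries. The difference for *Slc7a11* was lost (adjusted p of 0.051 to 0.12 from edgeR) when any 1 of 7 libraries was left out: replicates 1 and 2 of the WT cells and 2 and 3 of the KI cells for the *Stat5a* line, and replicates 2 and 3 of the WT cells and 3 of the KI cells for the *Stat5b* line. For *Slc1a4* and *Slc7a1* the differences at 48 hr were −0.93 ± 0.36 (adjusted p = 0.094) and −0.67 ± 0.10 (adjusted p = 4.9e-05) and were not called. The KI effects come from separate mouse lines, so differences between their backgrounds and the difference between the alleles cannot be told apart.

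The genes whose course over the 16 group means was most like that of *Slc7a5*, by Pearson's r on log2(RPKM + 1) among 15565 other genes tested, were *Pabpc4* (0.988), *Cct2* (0.987), *Ipo7* (0.986), *Pno1* (0.984), and *Rsl24d1* (0.984). Their products act in poly(A) binding, protein folding, nuclear import, and ribosome assembly. Of the other 9 transporters, *Slc7a1* stood at rank 8 (0.9801), *Slc7a6* at rank 538 (0.907), *Slc3a2* at rank 6547 (0.0799), and *Slc7a11* at rank 11881 (−0.51). The genes most like *Slc3a2* were *Sesn2* (0.962), *Bhlhe40* (0.958), *Cebpb* (0.957), *Utp14b* (0.956), and *Nfil3* (0.955), with *Sesn2* and *Cebpb* known as targets of ATF4, and *Slc38a2* had 0.882. The 16 means share libraries' depth and the same times, and the values of r are a description. *Myc*, the transcription factor that raises many nutrient carriers in T cells, had an RPKM of 21.7, 19.1, and 21.2 at 0 hr, 89.4, 102, and 99.5 at 4 hr, and 93.0, 90.1, and 94.8 at 48 hr in *Stat5b* line WT cells and 45.4, 42.0, and 40.2 in *Stat5b* KI cells at 48 hr. The WT log2 fold change was 2.06 ± 0.18 (adjusted p = 5.7e-12) at 4 hr, when *Slc7a5* was below its 0 hr level, and the KI effect at 48 hr was −1.20 ± 0.18 (adjusted p = 2.8e-07). In *Stat5a* line WT cells the RPKM of *Myc* was 43.2, 53.5, and 20.3 at 0 hr, 85.2, 75.6, and 87.6 at 4 hr, and 94.2, 96.9, and 94.6 at 48 hr, with a wide spread at 0 hr, and in *Stat5a* KI cells 65.4, 67.8, and 67.7 at 48 hr. The WT log2 fold change there was 1.15 ± 0.18 (adjusted p = 8.1e-07) at 4 hr, and the KI effect, which was not called, was −0.96 ± 0.20 (adjusted p = 0.0015) at 4 hr, −0.28 ± 0.17 (adjusted p = 0.3) at 24 hr, and −0.56 ± 0.17 (adjusted p = 0.0087) at 48 hr, with all KI libraries below the WT libraries at these times. The IL-2 response of *Myc* at 4 hr differed between KI and WT cells of that line by −1.39 ± 0.27 (adjusted p = 0.0056), which was called. The r of *Myc* with *Slc7a5* over the 16 means was 0.511.

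A further 4 lists of the pathway were examined at 48 hr, each as counts of called genes beside the shares of all genes. In WT cells the shares called higher and lower with IL-2 were 14.3% and 22.3% of all genes for the *Stat5a* and 14.6% and 20.7% for the *Stat5b* line, and in KI against WT cells 6.35% and 2.43%, and 16.5% and 9.81%. Of 47 other amino acid transporters, 34 passed the filter on low counts. In WT cells 2 were called higher and 9 lower with IL-2 for the *Stat5a* line, and 2 and 8 for the *Stat5b* line, so that the number lower was near the share of all genes. The higher ones were *Slc7a3*, a carrier of arginine and lysine, with a mean RPKM of 0.112 ± 0.0668 at 0 hr and 0.744 ± 0.300 at 48 hr for the *Stat5a* line (log2 fold change 2.47 ± 0.37), and *Slc6a9*, the glycine carrier GLYT1 (1.75 ± 0.44). In the *Stat5b* line the values were 3.36 ± 0.39 and 1.97 ± 0.43. Both were lower in KI cells at 48 hr, *Slc7a3* at −2.17 ± 0.36 and −2.93 ± 0.37 and *Slc6a9* at −1.34 ± 0.42 and −2.36 ± 0.44, and were the only 2 of the list called lower in either line. The largest fitted falls in WT cells were those of *Slc6a20a*, at 0 reads in all WT libraries at 48 hr and at 0 to 15 reads at 0 hr, *Slc1a3*, at 1 to 4 reads at 48 hr and 9 to 30 at 0 hr, and for the *Stat5b* line *Slc7a10*, at 0 reads at 48 hr and 3 to 8 at 0 hr. The call of *Slc6a20a* was lost without replicate 3 at 0 hr for the *Stat5a* line (adjusted p = 0.077 from edgeR) and without replicate 1 at 48 hr for the *Stat5b* line (0.051). In KI cells 3 were called higher for the *Stat5a* line, among them *Slc7a8* (1.77 ± 0.48) and *Slc3a1* (1.70 ± 0.31), and 8 for the *Stat5b* line, among them *Slc7a8* (3.81 ± 0.51) and *Slc7a10*, at 10 to 15 reads against 0 in WT cells. Without replicate 1 of the *Stat5a* KI cells, *Slc7a8* was not called in that line (log2 fold change 1.13, adjusted p = 0.07 from edgeR). The part of the other cell types in these KI differences was not tested. The median log2 fold change of the 34 genes was −0.64 and −0.72 for IL-2 in WT cells and 0.45 and 0.79 for KI against WT cells, and −0.62, −0.64, 0.41, and 0.68 when genes at 0 in a whole group were set to a bound of 3 reads per library.

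The 5 most abundant of these other transporters had no common course. *Slc6a19*, a carrier of neutral amino acids, was higher in KI cells, with a mean RPKM at 48 hr of 15.2 ± 3.11 in WT and 32.1 ± 7.97 in KI cells of the *Stat5a* line (1.03 ± 0.24) and 12.6 ± 1.03 and 45.1 ± 5.11 for the *Stat5b* line (1.76 ± 0.24). *Slc43a2*, the carrier LAT4 of branched-chain amino acids, had a KI effect of 0.77 ± 0.12, less than 2-fold, and 1.03 ± 0.12, called higher. *Slc38a10*, the taurine carrier *Slc6a6*, and the lysosomal carrier *Slc36a1* were called in 0 of the 4 comparisons at 48 hr. Their log2 fold changes between KI and WT cells were −0.04 ± 0.07, 0.05 ± 0.07, and 0.43 ± 0.12 for the *Stat5a* line and −0.18 ± 0.07, −0.32 ± 0.07, and 0.59 ± 0.12 for the *Stat5b* line.

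Of 35 genes for amino acid sensing by mTORC1, the kinase complex that leucine and arginine switch on, 34 were tested and few were called. In WT cells 4 were higher and 1 lower with IL-2 for the *Stat5a* line, and 3 and 1 for the *Stat5b* line. The GATOR2 subunits *Sec13* (1.23 ± 0.10) and *Seh1l* (1.22 ± 0.07) led for the *Stat5a* line, and *Seh1l* (1.40 ± 0.07) and the Ragulator subunit *Lamtor3* (1.17 ± 0.07) for the *Stat5b* line. The leucine sensor *Sesn2* was the gene that fell in both, at −1.74 ± 0.17 and −1.10 ± 0.17. The *Stat5b* call of *Sesn2* was lost with limma (−0.77), without replicate 1 at 0 hr (−0.99), and without replicate 3 at 48 hr (−0.96). In KI cells 1 was higher for the *Stat5a* line, *Gatsl2*, a relative of the arginine sensor (1.01 ± 0.11), and 3 for the *Stat5b* line, led by *Gatsl2* (1.25 ± 0.11) and *Sesn1* (1.21 ± 0.11), and these were all the calls. The *Stat5a* value of *Gatsl2* was under 2-fold in 10 alternatives, among them DESeq2 (0.97), limma (0.73), and the fits without replicate 2 or 3 of the WT (0.93 and 0.99) or of the KI cells (0.97 and 0.90). The median was 0.08 and 0.09 for IL-2 and −0.13 and −0.17 for KI against WT cells.

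Of 18 genes of the amino acid starvation response, which ATF4 drives, 17 were tested. In WT cells 6 were higher and 4 lower with IL-2 than at 0 hr for the *Stat5a* line, and 8 and 4 for the *Stat5b* line. The number lower was near the share of all genes (22.3% and 20.7%). Those that rose most were *Asns*, for asparagine, with a mean RPKM of 0.319 ± 0.202 at 0 hr and 11.1 ± 4.40 at 48 hr for the *Stat5a* line (4.86 ± 0.47) and 5.07 ± 0.47 for the *Stat5b* line, *Psat1*, for serine (3.14 ± 0.13 for the *Stat5a* line), and *Cth*, for cysteine, at 1 to 2 reads at 0 hr and 38 to 68 at 48 hr for the *Stat5b* line. Those that fell were led by the phosphatase subunit *Ppp1r15a* (−5.04 ± 0.14 and −4.89 ± 0.14) and the transcription factor *Cebpb* (−2.16 ± 0.17 and −2.30 ± 0.17). In KI cells at 48 hr, 3 of the 17 were lower for the *Stat5a* line and 6 for the *Stat5b* line, and these were all the calls. *Asns* was lower at −2.26 ± 0.40 and −3.67 ± 0.43, *Chac1*, which breaks down glutathione, at −1.60 ± 0.47 for the *Stat5a* line, and *Cth* at −3.21 ± 0.67 for the *Stat5b* line. The median was −0.62 and −0.70 for KI against WT cells and 0.08 and 0.14 for IL-2.

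Of 23 genes for enzymes that use the imported amino acids, 11 were higher and 1 lower with IL-2 than at 0 hr in WT cells of each line. *Bcat1*, the cytosolic transaminase of branched-chain amino acids, had a mean RPKM of 0.222 ± 0.0417 at 0 hr and 4.35 ± 0.879 at 48 hr for the *Stat5a* line (4.08 ± 0.31) and rose by 4.30 ± 0.32 for the *Stat5b* line. *Nos2*, which makes nitric oxide from arginine, had the largest fitted rise with 0 to 4 reads at 0 hr and 130 to 259 reads at 48 hr for the *Stat5a* line and 1 to 4 and 41 to 73 reads for the *Stat5b* line. In KI cells at 48 hr, 5 of the 23 were lower for the *Stat5a* line, where these were all the calls, and 11 were lower and 2 higher for the *Stat5b* line. *Bcat1* was lower at −1.83 ± 0.28 and −3.01 ± 0.29 and the glutaminase *Gls2* at −1.58 ± 0.43 and −2.57 ± 0.47. *Ido1*, which breaks down tryptophan, was among the higher genes (2.99 ± 0.54). The median was 0.70 and 0.62 for IL-2 and −0.59 and −0.97 for KI against WT cells.

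**Figure D5:**
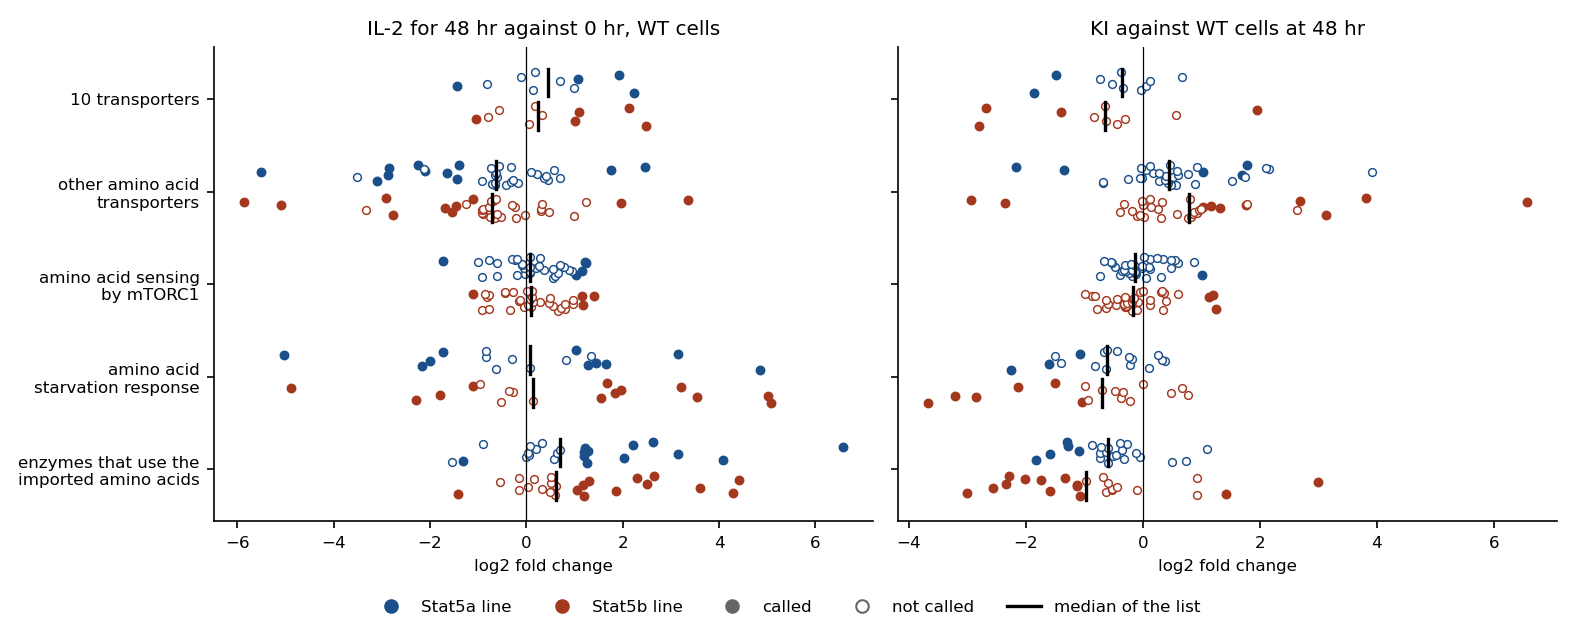
Log2 fold changes (horizontal axis) at 48 hr of the 10 transporters and of 4 further lists, for IL-2 against 0 hr in WT cells (left) and KI against WT cells (right); each point is 1 gene in 1 line, filled where called, and black ticks are list medians. The extreme values of *Slc6a20a* and *Slc7a10* are set against groups at 0 reads and are no measured fold. The enzymes have medians of 0.70 and 0.62 on the left and −0.59 and −0.97 on the right, while the other transporters have medians of the opposite sign.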

How the data were processed

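RNA-seq of splenic CD8+ T cells was deposited as 1 table per library. Per the study's methods, the authors made libraries from 100 ng of total RNA, sequenced single-end reads of 50 bases, aligned them to mm10 with TopHat 2.0.11, kept unique reads, and deposited raw exon read counts and RPKM for each RefSeq transcript. The submitters' processing notes also name Bowtie2 2.2.6, SAMtools 0.1.8, bedtools 2.25.0, and edgeR; the program and strand setting for counting are not given in the sources used here, so antisense reads cannot be told apart. *Slc3a2*, *Slc38a1*, and *Slc43a1* have several transcripts with nearly equal reads, of which the longest was used.

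The deposited counts of the longest transcript of each symbol were fitted with edgeR 4.0.16 (TMM, filterByExpr with a minimum count of 10, quasi-likelihood, 1 mean for each of 16 groups, 47 libraries), and p-values were adjusted by Benjamini-Hochberg over 15566 genes. SEs are the log2 fold change divided by the root of the test's F. Replicate 3 of the *Stat5a* KI group at 4 hr was left out. Of its 18122792 mapped reads, 5.68% lay on the longest transcripts. The deposited RPKM values gave levels and, as log2(RPKM + 1), the likeness and a limma 3.58.1 fit (genes at RPKM 1 in at least 3 libraries). DESeq2 1.42.0, its size factors, no filter, all 48 libraries, only the groups compared, the transcript with the most reads, a replicate block, and each library left out in turn were alternatives. Scripts were tested on simulated data. Same-numbered libraries were compared between WT cells at 0 hr and later and between KI and WT cells. They deviated together (every r over 0.1) only between *Stat5a* line WT cells at 0 hr and at 24 hr (0.206 to 0.419) or 48 hr (0.117 to 0.192). KI cells were not compared across times in this way. In *Stat5b* KI cells the erythroid sum was highest in replicate 1 and lowest in replicate 2 at every time (970.4 and 390.9 at 0 hr, 206.1 and 110.9 at 48 hr). The main fit did not pair libraries by number, and the replicate block was run as an alternative. Genes named from further lists were the 2 with the largest called change each way per comparison at 48 hr, plus the 5 most abundant other transporters, and for likeness the 5 genes of highest r. The 10 genes and all lists were chosen with earlier results of these data known. Promoters came from RefSeq (GRCm38.p6). One gene that the naming rule picks from the enzyme list is not reported here.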

Additional observations from a re-analysis of the deposited data

Results flagged for a closer look

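The difference in IL-2 response between KI and WT cells was called for 3 of the transporters. The rule was an adjusted p of at most 0.05 in edgeR's test of the difference of log2 fold changes and a difference of at least 2-fold. For *Slc7a5* the difference was −1.61 at 48 hr for the *Stat5a* line and −1.83 at 24 hr and −2.64 at 48 hr for the *Stat5b* line. For *Slc1a4* it was −1.65 at 24 hr and −2.53 at 48 hr for the *Stat5a* line and −2.22 and −3.19 for the *Stat5b* line, on 16 to 314 reads per library. For *Slc7a1* it was −1.32 at 48 hr for the *Stat5b* line. By the same rule the KI effect also differed between the lines, as the *Stat5b* minus the *Stat5a* value. For *Slc7a5* this was −1.23 at 24 hr and −1.20 at 48 hr, and for *Slc7a11* it was 1.28 at 48 hr, which did not pass the threshold when any 1 of 7 libraries was left out. At 24 hr every *Stat5a* KI library was above, and every *Stat5b* KI library below, the WT libraries of its line in *Slc1a5*. The log2 fold change was 0.12 ± 0.12 for the *Stat5a* line, which did not pass the test (adjusted p = 0.54 from edgeR). For the *Stat5b* line it was −0.40 ± 0.12 (adjusted p = 0.0055 from edgeR), less than 2-fold. The difference between the lines for *Slc1a5* at that time was −0.53 ± 0.17 (adjusted p = 0.034 from edgeR), under 2-fold and therefore not called.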

How the results depend on the processing

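Direction held for every called value under the alternatives run: 4048 log2 fold changes of single genes stayed on their side of the thresholds, 71 lost and 33 gained a call, and 177 that were uncalled both ways had another sign. *Slc7a5* stayed called at 48 hr against WT in both lines under all of them. Counts of called genes stayed within 1.5 times the value reported in 548 fits and moved in 62; the following moved. With limma on log2(RPKM + 1), which tests fewer genes and compresses low ones, the transporters' IL-2 response difference gave 0 (*Stat5a* line, 24 hr), 1 (48 hr), and 1 (*Stat5b* line, 24 hr), and KI against WT gave 0 and 1 for the *Stat5a* line (4 and 48 hr) and 0, 0, 1, and 2 for the *Stat5b* line (0, 4, 24, and 48 hr). It gave 1 for the line difference at 48 hr, 2 at 24 hr for *Stat5a* line WT cells, 1 and 3 for the *Stat5b* line at 4 and 48 hr, and 3 and 6 by adjusted p alone at 48 hr. For the further lists limma gave 0, 1, 1, and 2 other transporters (WT *Stat5a*, WT *Stat5b*, KI *Stat5a*, KI *Stat5b*), 0 and 1 sensing genes, 2 starvation genes (KI *Stat5b*), and 3 and 7 enzymes. With all 48 libraries the counts were 1 (response difference, *Stat5a* line, 4 hr), 2 and 1 (*Stat5a* KI at 4 and 24 hr), 1 (line difference, 48 hr), 1 (*Stat5b* line WT, 4 hr), 6 (adjusted p alone, *Stat5b* line), 7 other transporters (*Stat5a* line WT), and 0 sensing genes, and 2 of 5 genes most like *Slc7a5* and 2 of 5 most like *Slc3a2* were shared. With only the groups compared they were 1 (response difference, *Stat5b* line, 4 hr), 0 (*Stat5a* KI, 4 hr), and 7 other transporters (*Stat5a* line WT). No filter and the transcript with the most reads each gave 1 for *Stat5a* KI at 24 hr and 0 sensing genes in *Stat5a* KI cells, as did DESeq2 and its size factors for the latter (0). A pseudocount of 0.1 shared 3 of 5 genes most like *Slc3a2*. The replicate block gave 1 for *Stat5a* KI cells at 24 hr, *Slc1a4* just past 2-fold (adjusted p = 0.0038 from edgeR), and changed no other call. Leaving out single libraries gave 0 to 1 for *Stat5a* KI at 4 and at 24 hr, 1 to 2 for the line difference at 24 and at 48 hr, 0 to 1 sensing genes in *Stat5a* KI, and 4 to 7 in *Stat5b* line WT cells. The causes were not tested.

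Over 11629 shared genes limma shifted the median log2 value by 0.193 and 0.164 (WT at 48 hr, *Stat5a* and *Stat5b* lines), 0.157 and 0.174 (24 hr), 0.164 (*Stat5b* line, 4 hr), 0.285 and 0.11 (KI at 4 hr), and 0.266 (response difference, *Stat5a* line, 4 hr), and the higher share of calls in WT cells at 48 hr went from 53.4% to 73.5% and from 53% to 71.4%.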

Other observations

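Of the genes named above, 4 of the amino acid starvation and transporter lists are given here at the early times. Only their RPKM ranges are given, and their test results at these times are not reported. They were picked after their values were seen and stand for no group. In the *Stat5b* line *Asns*, the asparagine synthetase, had an RPKM of 0.366 to 0.5999 in WT and 1.19 to 1.24 in KI cells at 0 hr, and of 0.985 to 1.11 and 3.77 to 4.74 at 4 hr. *Chac1*, which breaks down glutathione, had 0.0575 to 0.0704 and 0.339 to 0.557 at 0 hr, on 5 to 6 reads per WT library, and 0.208 to 0.465 and 0.872 to 1.40 at 4 hr. *Slc6a9*, the glycine carrier, had 0.0718 to 0.186 and 0.361 to 0.719 at 0 hr, and 0.275 to 0.284 and 0.770 to 1.46 at 4 hr. By the rule for calls, 7.38% of all genes were higher in *Stat5b* KI cells at 0 hr and 9.2% at 4 hr. The share of all genes whose KI and WT libraries lie apart was not counted in either line. In *Asns*, *Chac1*, and *Slc6a9* the KI libraries lay above the WT libraries at both times. *Cebpb* went the other way at 0 hr, at 30.2 to 34.4 in WT and 22.7 to 29.7 in KI cells, and at 4 hr had 3.91 to 4.61 and 5.06 to 5.95. In the *Stat5a* line the KI and WT ranges of all 4 overlapped at 0 hr. At 4 hr *Asns* had 0.389 to 1.05 in the WT and 1.40 to 3.24 in the 2 KI libraries of that line and *Chac1* 0.0823 to 0.183 and 0.417 to 1.04, both without overlap, while *Slc6a9* and *Cebpb* overlapped. The part of the marker genes of other cells, which were higher in the same *Stat5b* KI groups, was not tested.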
